A study of Caenorhabditis elegans with 14 samples.

Results

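The fbxa and fbxc genes are the 2 families of Caenorhabditis elegans F-box genes whose symbols start with fbxa and fbxc. They were taken as every gene with such a symbol that has a probe set of its own on the array, each represented by its brightest such probe set (mean of all arrays). This gave 171 fbxa genes and 44 fbxc genes, or 215 of the 17118 genes represented. A gene table of the RefSeq annotation (assembly WBcel235) lists 222 fbxa and 56 fbxc symbols, so that 51 fbxa and 12 fbxc genes had no probe set of their own and were not analysed here.

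An F-box protein is the part of an SCF ubiquitin ligase that chooses the substrate. Its F-box binds a Skp1-type adaptor, which in worms is one of the SKR proteins, the adaptor binds a cullin, and the rest of the F-box protein holds the target that receives ubiquitin. Nematodes carry far more F-box genes than vertebrates do, most of them without an assigned substrate. FBXA-75 and FBXA-158 are exceptions with a described partner, since both act with the cullin CUL-6 in the intracellular pathogen response, a programme induced by microsporidia, viruses and proteasome blockade.

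The values were log2 array signals from whole worms. The groups were 4 arrays of daf-19 mutant larvae of the first stage (L1) against 4 arrays of control L1 larvae, and 3 arrays of adult daf-19 mutants against 3 arrays of adult controls. The gene daf-19 encodes an RFX transcription factor, best known for its role in ciliated sensory neurons. The genotype label lists daf-19 and daf-12 for the mutants and daf-12 for the controls, so every animal carried a daf-12 mutation. Neither allele is named. Per the protocol the adults were 50 hours beyond the L4 stage, although the titles call them young adults. In whole worms, fewer cells of a type and less RNA per cell cannot be told apart.

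Some facts of the whole series bear on what follows. The daf-19 transcript was lower in mutants on both of its probe sets, by -0.70 and -0.69 (log2) at L1 (limma, adjusted p = 0.0125 and 0.00281) and by -0.56 and -0.64 in adults (adjusted p = 0.105 and 0.0163). None of the 14 germline and 10 intestine markers passed the test between genotypes at either stage, and 1 of 9 sperm markers, spe-4, was higher in L1 mutants, whereas 4 of 8 ciliated neuron markers were lower in L1 mutants and 0 in adult mutants. The Gapdh 3′ minus 5′ signal, a measure of RNA integrity and labelling, lay between 3.83 and 4.12 on L1 mutant arrays and between 3.16 and 3.83 on L1 control arrays. In adults it lay between -0.54 and -0.39 in mutants and between -0.44 and -0.36 in controls. Array 1 of the adult controls stood nearer the mutants than the other two controls for many fbxc genes, and array 1 of the L1 controls did so for a few fbxa genes. Results that rest on either are given with and without it.

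Signals of both families sat low on the array. The within-array percentile ranks a probe set among the 22548 tested, and because probe sets bind with different strength it describes signal, not transcript amount. The median percentile of the fbxa genes was 20.6 in L1 mutants and 20.2 in L1 controls, and 24.1 in adult mutants and 23.5 in adult controls. That of the fbxc genes was 24.1 in L1 mutants and 23.8 in L1 controls, and 33.7 in adult mutants and 38.6 in adult controls. In all, 59 fbxa genes (34.5%) and 8 fbxc genes (18.2%) lay in the lowest 25% of signals on every array, against 2069 of all genes (12.1%). For these the data give little room to see a fall.

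The genes with higher signal were partly different ones at the 2 stages. Among controls, 18 fbxa genes exceeded the 50th percentile at both stages, 22 only in adults, 15 only at L1 and 116 at neither. The corresponding fbxc numbers were 4, 10, 4 and 26. The RefSeq table calls 36 of the fbxa genes pseudogenes, and their signals were not uniformly low. In adult controls 9 of these 36 (25%) lay above the 50th percentile, and 3 (8.33%) did so in L1 controls, whereas for the 135 coding fbxa genes the counts were 31 (23.0%) in adults and 30 (22.2%) at L1. Probes for a pseudogene can bind transcripts of a close paralog, and this was not tested.

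**Figure D1:**
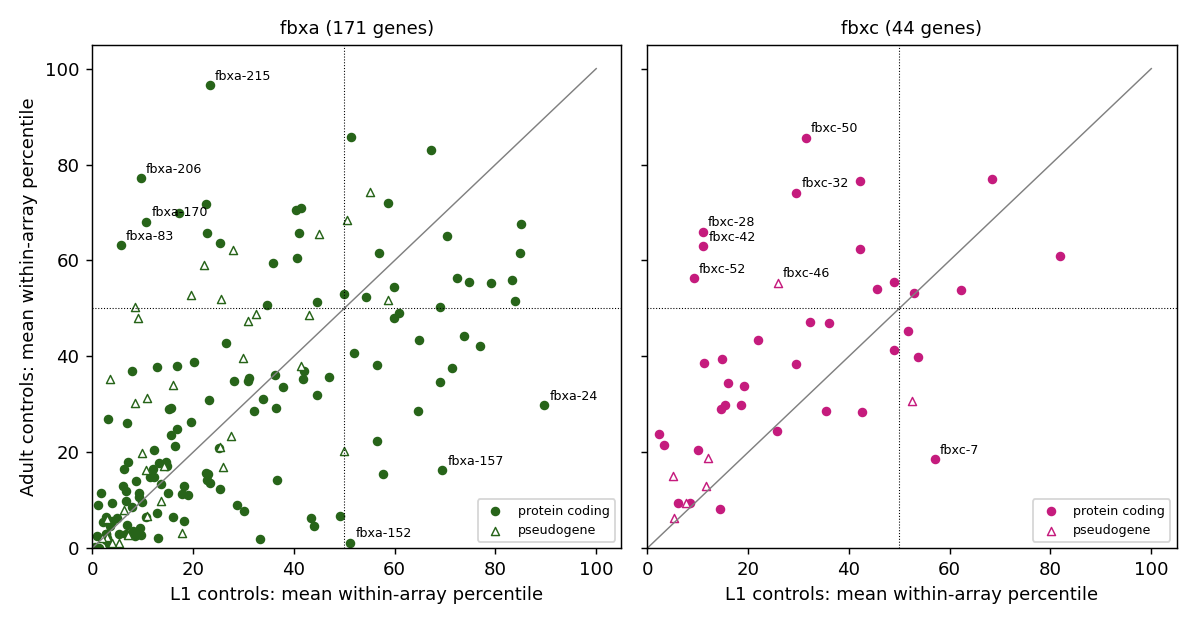
Mean within-array percentile of each fbxa gene (left) and fbxc gene (right) in adult controls (vertical axis) against L1 controls (horizontal axis); filled circles are coding genes, open triangles pseudogenes, dotted lines the 50th percentile and the diagonal equal rank. Of the fbxa genes, 22 lie above the 50th percentile only in adults and 15 only at L1.

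Few members of either family changed with loss of daf-19 in adults. On the brightest probe set of each gene, the largest change was a fall of fbxa-72. A dimmer probe set of fbxc-51 fell by -1.51 and is described below. By the limma fit over all probe sets with Benjamini-Hochberg adjustment, 1 fbxa gene rose (fbxa-191) and 1 fell (fbxa-72), which is 1.17% of 171, and 2 fbxc genes fell (fbxc-28 and fbxc-25), which is 4.55% of 44. The background was 1.06% of all genes called in either direction. The median log2 difference, mutant minus control, was 0.03 for fbxa, -0.02 for fbxc and 0.03 for all genes.

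The gene fbxa-72 (CELE_F31F4.15, chromosome V) encodes an F-box protein with no assigned substrate. Its log2 signal was 5.92, 5.54 and 6.13 in the adult mutants, against 7.09, 7.58 and 7.29 in the adult controls. Every mutant array lay below every control array. The means were 5.86 ± 0.30 in mutants and 7.32 ± 0.25 in controls (SD, n = 3 each), a log2 difference of -1.46 (SE 0.14), or 2.74-fold lower, with a limma adjusted p of 0.000108. It stayed past the threshold under all 21 alternatives tried, with adjusted p between 3.12e-05 and 0.0168. At L1 the signal was 3.64, 3.81, 3.81 and 3.69 in mutants, against 3.67, 3.74, 3.89 and 3.67 in controls. These ranges overlapped, near the lowest 25% of signals, and the L1 difference was -0.005 (SE 0.13, limma adjusted p = 0.997). The difference between the adult and the L1 effect was itself past the threshold, at -1.45 (SE 0.19, limma adjusted p = 0.00149), and stayed so under all 20 alternatives.

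The gene fbxc-28 (CELE_R07C3.6, chromosome II) showed the next largest fall on the brightest probe sets. Its log2 signal was 6.51, 6.70 and 6.62 in adult mutants, against 7.08, 7.67 and 8.04 in adult controls. The groups did not overlap, and the spread was smaller in the mutants (SD 0.10, n = 3) than in the controls (SD 0.48, n = 3). The log2 difference was -0.99 (SE 0.18), or 1.98-fold lower, with a limma adjusted p of 0.0159. The call was lost without adult control 2 (adjusted p = 0.0903) or 3 (0.0623), without adult mutant 1 (0.0874) or 3 (0.0672), and in a fit of the adult arrays alone (0.124).

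The gene fbxc-25 (CELE_K09F6.8, chromosome II) was dim throughout, in the lowest 25% of signals on all 14 arrays. Its log2 signal was 3.97, 3.95 and 3.95 in adult mutants, against 4.21, 4.48 and 4.55 in adult controls. The groups did not overlap, and the difference was -0.46 (SE 0.09, limma adjusted p = 0.0208). Its call was lost when any adult array other than control 1 was left out, with adjusted p between 0.082 and 0.129, and in a fit of the adult arrays alone (0.124).

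The only member higher in adult mutants past the threshold was fbxa-191 (CELE_F57G4.4, chromosome V), called a pseudogene by RefSeq. Its log2 signal was 6.60, 6.65 and 6.75 in adult mutants, against 6.33, 6.25 and 6.04 in adult controls. The groups did not overlap, and the difference was 0.46 (SE 0.10) with a limma adjusted p of 0.0493, just inside the threshold. It was lost under 18 of 21 alternatives, with adjusted p as high as 0.252, so its call depends on nearly every choice of array and setting.

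**Figure D2:**
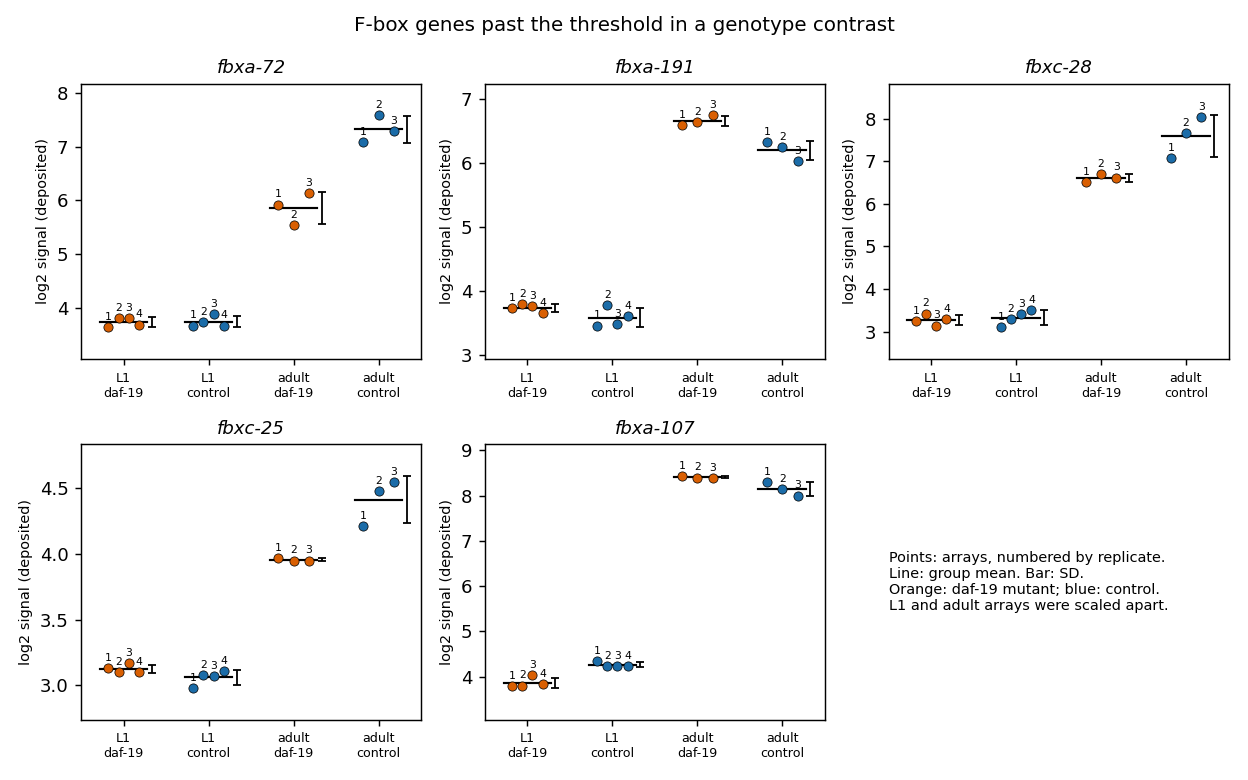
Deposited log2 signal of the 5 genes past the threshold in a genotype contrast, one point per array, in L1 mutants, L1 controls, adult mutants and adult controls; lines are means and bars SD (n = 4 at L1, n = 3 in adults). The 3 adult mutant values of fbxa-72 lie between 5.54 and 6.13, below the control values of 7.09 to 7.58.

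Members short of the threshold in adults included fbxa-156, at 7.04, 7.20 and 7.10 in mutants against 7.39, 7.79 and 8.19 in controls (log2 difference -0.68, limma adjusted p = 0.0854), and fbxa-13, at 5.49, 5.45 and 5.57 in mutants against 5.21, 5.13 and 5.03 in controls (0.38, adjusted p = 0.109). The gene fbxc-18 read 5.32, 5.34 and 5.29 in mutants against 5.56, 5.75 and 5.89 in controls (-0.42, adjusted p = 0.0676). The gene fbxc-40 read 5.16, 5.11 and 5.20 in mutants against 5.29, 6.03 and 6.02 in controls (-0.62, adjusted p = 0.113). In each of these 4 genes the groups did not overlap.

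Without the adjustment, fbxc genes leaned lower in adult mutants. At an unadjusted p under 0.05, 9 of 44 fbxc genes (20.5%) were lower and 1 was higher, where the background was 4.93% lower and 3.16% higher. For fbxa the counts were 4 lower and 8 higher of 171. Arrays of the 2 genotypes did not overlap in 7 fbxc genes that were lower and 2 that were higher, where the background was 5.84% lower and 7.9% higher. For fbxa these counts were 9 lower and 18 higher.

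The fbxc count depended on which adult arrays were used. Past the adjusted threshold it was 0 of 44 without mutant 1, mutant 3, control 2 or control 3, and 1 (2.27%) without mutant 2. Calls were lost over the whole array as well. They went from 231 probe sets to 121 without mutant 1, 120 without mutant 3, 103 without control 2, 112 without control 3 and 144 without mutant 2. Among the 9 fbxc genes lower at an unadjusted p under 0.05, control 1 was the lowest of the 3 adult controls in all 9. Over all 44 fbxc genes it was the lowest in 19 (43.2%), against 32.6% of all genes. Without that array 6 fbxc genes fell past the adjusted threshold (13.6%), with fbxc-18, fbxc-24, fbxc-29 and fbxc-40 added, and the background went up as well, to 3.39%. Without it fbxa-156 fell and fbxa-192 rose as well, which made 2 fbxa genes higher and 2 lower. Control 1 was singled out by its own low values in those 9 fbxc genes, so leaving it out must widen their fall. No conclusion is drawn from the fits without adult control 1, here or in later paragraphs. The part that control 1 has in the fbxc result beyond these counts was not tested.

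**Figure D3:**
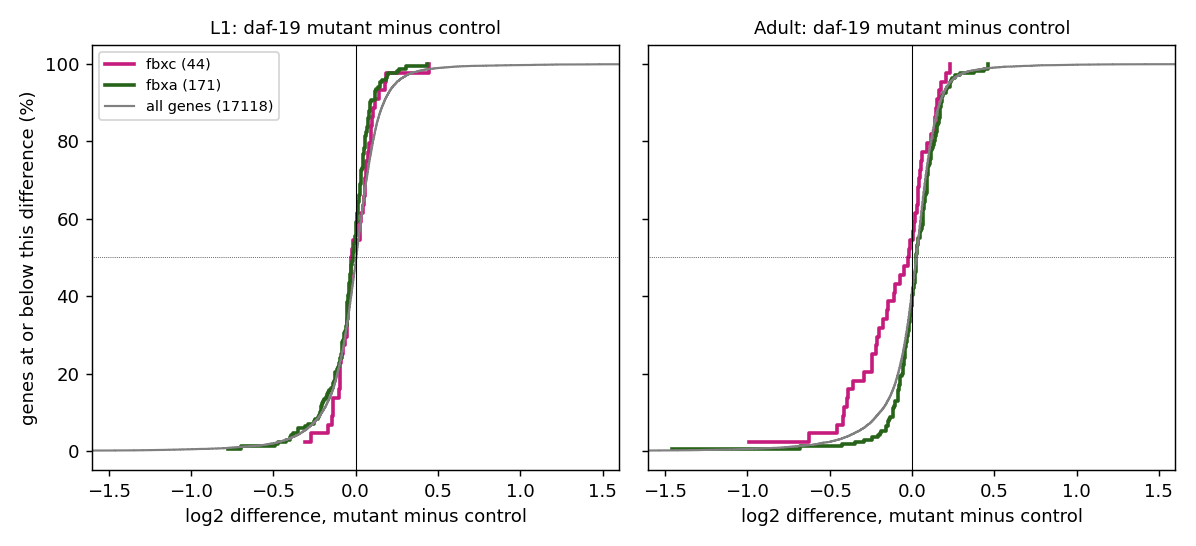
Cumulative share of genes (percent, vertical axis) at or below each log2 difference, mutant minus control (horizontal axis, log2), at L1 and in adults, for fbxc, fbxa and all genes. The adult medians are -0.02 for fbxc and 0.03 for fbxa and for all genes, and the fbxc curve departs from the other two on the negative side.

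Members that sit close together on a chromosome were also compared. Runs were defined as members with at most 5 other genes between one and the next, and at least 3 members. One run on chromosome II, between fbxc-24 and fbxc-42, holds 23 fbxc genes, of which 22 were measured, or 50% of the fbxc genes. In adults 13 of these 22 (59.1%) had a negative log2 difference, with a median of -0.11, where 54.5% of all 44 fbxc genes and 40.1% of all genes had one. Of the 9 fbxc genes that were lower at an unadjusted p under 0.05, 7 belong to it. Whether the run differs from the other fbxc genes was not tested. The genes of the run did not move as a block. While fbxc-28 fell, fbxc-32, a few genes away, read 8.70, 8.55 and 8.62 in mutants against 8.78, 8.51 and 8.44 in controls (log2 difference 0.05, limma adjusted p = 0.999). The gene fbxc-36 is among the 7 lower ones and went in the same direction as fbxc-28, short of the adjusted threshold. It read 6.59, 7.03 and 6.78 in mutants against 7.16, 7.22 and 7.20 in controls, without overlap (-0.39, limma adjusted p = 0.352). Members of a family that sit side by side can be similar in sequence, so their probe sets may share signal, and this was not tested.

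**Figure D4:**
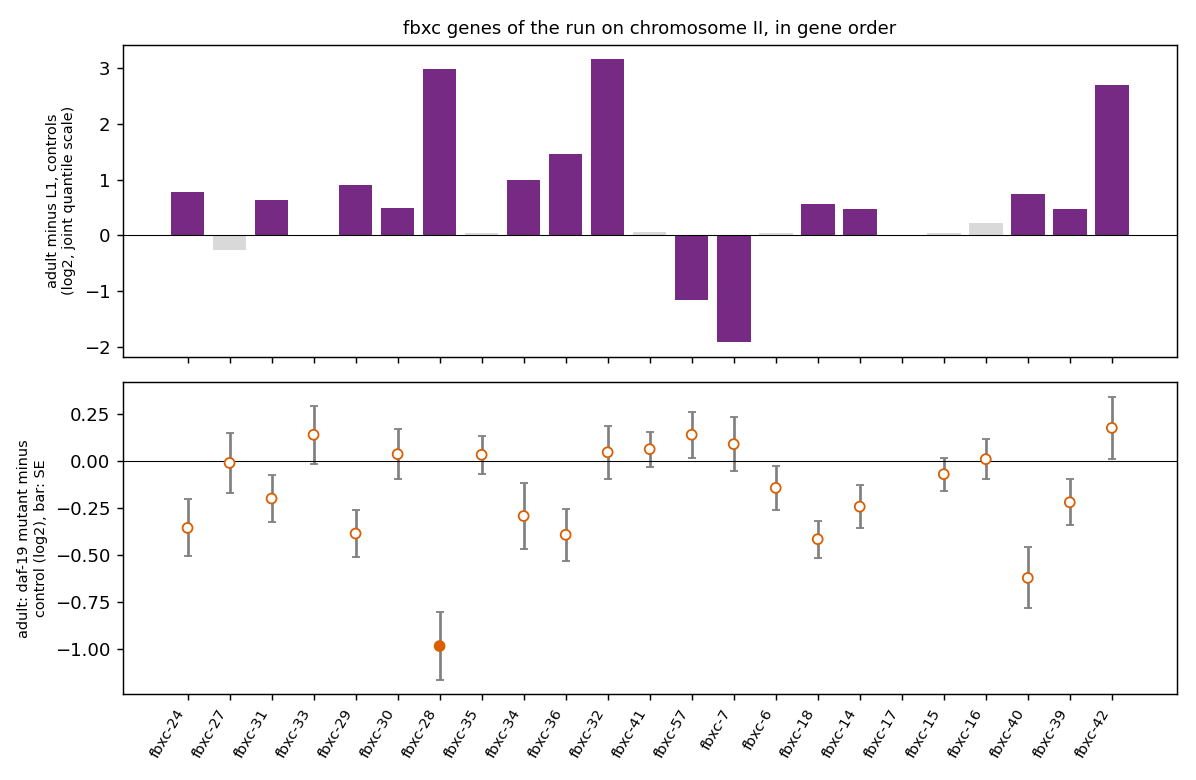
The 23 fbxc genes of the run on chromosome II in gene order; top, adult minus L1 log2 difference in controls (purple where past the threshold); bottom, adult mutant minus control log2 difference with its standard error. The fall of fbxc-28 (-0.99) stands beside genes near 0 such as fbxc-32 (0.05).

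A run on chromosome V holds the called pseudogene and its neighbours fbxa-192, fbxa-193, fbxa-129 and fbxa-108. In adults fbxa-192 read 8.79, 8.83 and 8.63 in mutants against 8.65, 8.12 and 8.16 in controls (log2 difference 0.44, limma adjusted p = 0.199). The gene fbxa-193 read 7.01, 7.17 and 7.06 in mutants against 6.88, 6.82 and 6.80 in controls (0.25, adjusted p = 0.599), and fbxa-129 differed by 0.24 (adjusted p = 0.377). The fifth gene, fbxa-108, differed by -0.14 (adjusted p = 0.999).

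The choice of probe set mattered for fbxc-51 (chromosome II). Its brighter probe set, which can bind other transcripts, read 6.14, 6.43 and 5.98 in adult mutants against 6.12, 6.29 and 6.47 in adult controls (log2 difference -0.11, limma adjusted p = 0.999). Its dimmer probe set, of the type designed for a single transcript, read 5.99, 6.45 and 6.28 in adult mutants against 6.71, 8.26 and 8.27 in adult controls, a log2 difference of -1.51 (SE 0.31, adjusted p = 0.0295). The 2 probe sets thus disagree, and the lowest control was again array 1.

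At L1 only fbxa-107 passed the test, with a small fall. By the same limma fit 1 of 171 fbxa genes was lower and 0 higher (0.585%), and 0 of 44 fbxc genes passed in either direction, where the background was 1.22%. At an unadjusted p under 0.05 the counts were 14 fbxa genes lower and 4 higher, and 2 fbxc genes lower and 0 higher; for all genes 6.23% were lower and 4.29% higher. The median log2 difference was -0.02 for fbxa and -0.02 for fbxc, and 0.005 for all genes.

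The gene fbxa-107 (CELE_Y37H2A.4, chromosome V) read 3.79, 3.80, 4.03 and 3.83 in L1 mutants, against 4.34, 4.23, 4.23 and 4.24 in L1 controls. The groups did not overlap, and the log2 difference was -0.40 (SE 0.08), or 1.32-fold lower, with a limma adjusted p of 0.0248. The call was lost under 9 of 21 alternatives. These were a fit of the L1 arrays alone (limma adjusted p = 0.102) and the Gapdh measure as a covariate (0.202). The others left out any L1 control or L1 mutants 1, 2 or 4 (0.0531 to 0.0682). In adults fbxa-107 read 8.43, 8.40 and 8.39 in mutants against 8.30, 8.14 and 8.0 in controls (0.26, SE 0.09, adjusted p = 0.352). The adult effect exceeded the L1 effect by 0.66 (SE 0.12, limma adjusted p = 0.0194), a call lost with the Gapdh covariate (0.111) and without adult control 2 or 3 or any adult mutant (0.0517 to 0.0659).

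The L1 replicates share numbers and varied together, and with the replicate number as a block 2 fbxa genes passed at L1 (1.17%), where the share of all genes in that fit was 2.47%. The added gene was fbxa-77 (chromosome III), at 6.89, 6.32, 6.38 and 6.82 in mutants against 7.01, 6.85, 7.24 and 7.28 in controls. Its difference was -0.49 (SE 0.14, limma adjusted p = 0.122 without the block and 0.0449 with it). The fbxa gene with the next smallest p, after fbxa-107, fbxa-75 and fbxa-77, was fbxa-189, at 3.30, 2.85, 3.09 and 3.35 in mutants against 3.38, 3.52, 3.40 and 3.87 in controls (-0.40, limma adjusted p = 0.181). The fbxc gene with the smallest p was fbxc-33, at 4.49, 4.77, 4.45 and 4.79 in mutants against 4.82, 4.97, 4.62 and 5.31 in controls (-0.30, adjusted p = 0.467).

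The 2 F-box genes with a described ligase, fbxa-75 and fbxa-158, did not pass at either stage. The gene fbxa-75 (chromosome III) read 3.46, 3.21, 2.96 and 3.47 in L1 mutants, against 3.21, 4.37, 4.33 and 4.30 in L1 controls. Control 1 lay among the mutants, and the other 3 controls lay far above them. The log2 difference was -0.78 (SE 0.21, limma adjusted p = 0.109). It was past the threshold in 1 of 20 alternatives, the fit without control 1 (adjusted p = 0.000205), and reached 0.555 in another. The gene fbxa-158 (chromosome II) read 4.18, 3.97, 3.95 and 4.30 in L1 mutants, against 4.05, 5.16, 4.39 and 5.58 in L1 controls, and control 1 again lay among the mutants. Its difference was -0.70 (SE 0.24, adjusted p = 0.28). It too passed in 1 of 20 alternatives, the fit without control 1 (0.0344), and reached 0.778 in another. Control 1 was singled out by its own low values in both genes, so leaving it out must widen the difference. No conclusion is drawn from those fits. Without control 1 fbxa-182 was past the threshold too, fbxa-107 was not, and 3 of 171 fbxa genes were lower (1.75%), where the background was 1.5%. In adults both genes lay in the lowest 25% of signals on every array, with differences of 0.08 for fbxa-75 and -0.06 for fbxa-158 (adjusted p = 0.999 each).

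Of the other parts of the CUL-6 ligase, skr-4, an adaptor gene, was lower in L1 mutants. It read 4.24, 4.83, 4.60 and 4.26 in mutants against 5.10, 5.86, 5.06 and 5.78 in controls, without overlap (log2 difference -0.97, SE 0.18, limma adjusted p = 0.0143). Its call was lost without L1 control 4 (0.0558), in a fit of the L1 arrays alone (0.126) and with the Gapdh covariate (0.21). The adaptor genes skr-3 and skr-5 differed by -0.08 and 0.00, cul-6 by 0.08 (adjusted p = 0.983) and the RING gene rcs-1 by -0.40 (adjusted p = 0.296). In a list of 30 pathogen response genes, which contains these, 3 were lower and 0 higher at L1 (skr-4, pals-29 and pals-33), with a median of -0.31 against 0.005 for all genes. Of all genes, 0.83% were lower past the adjusted threshold at L1. At an unadjusted p under 0.05, 16 of the 30 were lower and 0 higher, where 6.23% of all genes were lower. Without L1 control 1, 10 of the 30 were lower past the adjusted threshold, where 1.06% of all genes were. That array was singled out by its low values in fbxa-75 and fbxa-158, which act in the same response. No conclusion is drawn from that fit for the list either. The call of pals-29 was lost under 15 of 21 alternatives, the replicate block among them (limma adjusted p = 0.068), and that of pals-33 under 4 of 20. In adults 0 of the 30 passed, 1 of them at an unadjusted p under 0.05, with a median of 0.04.

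**Figure D5:**
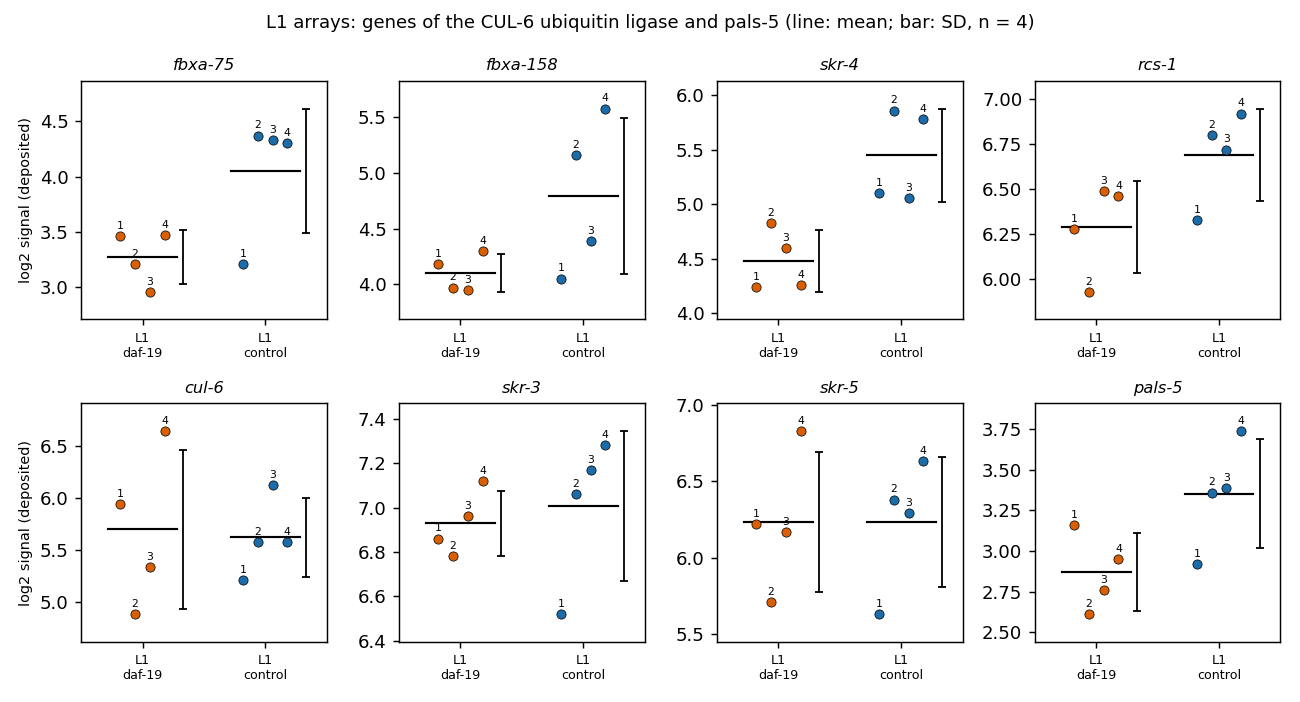
Deposited log2 signal on the L1 arrays, mutants left and controls right, for the F-box genes fbxa-75 and fbxa-158, the CUL-6 partners skr-4, rcs-1, cul-6, skr-3 and skr-5, and pals-5, a marker of the pathogen response; lines are means and bars SD (n = 4 each). One control point of fbxa-75, at 3.21, lies among the mutants, which run from 2.96 to 3.47.

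Just 2 members passed the test of the difference between the stages' genotype effects. These were fbxa-72, whose difference was negative, and fbxa-107, whose difference was positive, so that 1.17% of fbxa and 0 of 44 fbxc genes were called, where the background was 0.976%. At an unadjusted p under 0.05, 6 fbxc genes had a negative and 2 a positive difference, and 4 fbxa genes a negative and 13 a positive one, where the background was 4.5% negative and 4.91% positive. The closest fbxc genes were fbxc-25, at -0.52 (SE 0.12, limma adjusted p = 0.0538), and fbxc-28, at -0.94 (SE 0.24, adjusted p = 0.105). Without adult control 1, 5 fbxc genes passed (11.4%), all negative, and the share of all genes was 2.48%, made up of 1.75% negative and 0.724% positive.

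Other genes of the ubiquitin ligase system were set beside the families. Of 30 measured cullin, RING and Skp1-related genes, 4 were lower and 0 higher in adult mutants, where 0.695% of all genes were lower. All 4 were skr genes. They were skr-7 (log2 difference -0.98, limma adjusted p = 0.000217), skr-10 (-0.77, 0.00259), skr-9 (-1.08, 0.00587) and skr-8 (-1.03, 0.0102). The probe sets of skr-8 and skr-9 are of the type that can bind other transcripts. They may share signal, and this was not tested. The calls of skr-7 and skr-10 held under all 21 alternatives. That of skr-8 was lost without adult control 2 (0.0736) or 3 (0.0623) or adult mutant 1 (0.0641), and those of skr-8 and skr-9 were lost in a fit of the adult arrays alone (0.0565 and 0.112). Without adult control 1 the count was 7 lower and 1 higher, where 2.72% of all genes were lower and 0.672% higher. At L1 1 of the 30, skr-4, was lower. The fbxb genes, another F-box family of 95 measured genes, had 8 lower and 0 higher in adult mutants, with a median of -0.21, where 0.695% of all genes were lower, and 41 were lower at an unadjusted p under 0.05, where 4.93% of all genes were. Without adult control 1 the fbxb count was 20 lower, where 2.72% of all genes were. At L1 0 fbxb genes passed, 2 of them being lower at an unadjusted p under 0.05. Of 14 other F-box genes 0 passed at either stage, with 2 lower at an unadjusted p under 0.05 at each. The MATH-domain proteins of the bath and math genes include substrate adaptors of another cullin. Of 85 such genes 2 were higher in adult mutants, bath-1 and bath-12, where 0.368% of all genes were higher. Their calls were lost under 13 and 7 of 21 alternatives. At L1 0 of the 85 passed, 1 being lower and 2 higher at an unadjusted p under 0.05.

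The stages differed in many more members than the genotypes did. The deposited values of the stages lay on different scales, with array medians of 5.91 to 6.02 in adults and 4.72 to 4.76 at L1. The stages may have been normalized separately, which the sources used here do not state. All arrays were therefore first quantile normalized together. In adults against L1 of the control genotype, 54 fbxa genes were higher and 49 lower of 171 (31.6% and 28.7%), where the background was 34.5% higher and 40.3% lower. For fbxc 25 were higher and 9 lower of 44 (56.8% and 20.5%). In the mutants 56 fbxa genes were higher and 46 lower, and 19 fbxc genes were higher and 8 lower, where the background was 34.4% higher and 40.3% lower. Median log2 differences in controls were 0.02 for fbxa, 0.37 for fbxc and -0.06 for all genes.

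The split depends on the scale. With the deposited values 140 fbxa genes were higher and 18 lower in adult controls, and 41 fbxc genes were higher and 2 lower; 82.4% of all genes called were then higher, and the median of all genes moved to 0.85. With arrays centred on their medians 39 fbxa genes were higher and 111 lower, and 15 fbxc genes higher and 17 lower; 36.8% of all genes called were higher, and the median of all genes was -0.38. Which direction prevails in either family therefore depends on the scale. Beside all genes, the fbxc median in controls was higher on each scale. It was 0.37 against -0.06 jointly normalized, 1.3 against 0.85 deposited, and 0.07 against -0.38 centred. The fbxa median lay above that of all genes on the joint scale, and below it deposited (0.745) and centred (-0.48). Whether either family differs from all genes was not tested. The Gapdh measure of RNA integrity and labelling also moved with stage, as the values above show, and stage and that measure cannot be told apart. With it as a covariate 5 fbxa genes (2.92%) and 2 fbxc genes (4.55%) passed in controls, where the share of all genes was 8.27%.

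The gene with the largest stage difference was fbxa-215 (chromosome IV). Its signal lay at percentiles 97.0, 96.8 and 95.8 in adult controls, against 26.6, 22.6, 28.1 and 16.1 in L1 controls. The log2 difference on the joint scale was 6.72 (SE 0.14, limma adjusted p = 4.05e-15) in controls and 6.85 in mutants. It remained past the threshold with the Gapdh covariate (adjusted p = 0.00492), as did fbxa-101 (3.33 in controls, 0.00824), fbxa-192 (3.19, 0.0182) and fbxc-50 (4.36, 0.0279). The brighter probe set of fbxc-50, which gave 4.36, is of the type that can bind other transcripts. Its dimmer probe set, of the type designed for a single transcript, differed by only 0.34 (limma adjusted p = 0.00549). The 2 probe sets thus disagree in size.

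Other genes higher in adult controls were fbxa-206, by 4.16, fbxa-170, by 3.19, and fbxa-197, by 3.16. All 3 lay in the lowest 25% of signals on every L1 array, so that their L1 levels may be background. The size of the difference moved with the setting, down to 2.77 for fbxa-206, 2.14 for fbxa-170 and 3.04 for fbxa-197. The gene fbxc-28, as dim at L1, was higher by 3.00, and by 2.78 at the least. Its neighbour fbxc-32 was higher by 3.17, but by only 0.78 with the Gapdh covariate (limma adjusted p = 0.809). The gene fbxc-47 was higher by 2.87, and by 2.78 at the least. In mutants fbxc-28 was higher in adults by 2.27. None of these 6 genes passed with the Gapdh covariate in controls.

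The largest fall in adults was that of fbxa-24 (chromosome II). It lay at percentiles 18.6, 27.2 and 43.7 in adult controls, against 90.5, 86.8, 90.5 and 91.0 in L1 controls, a log2 difference of -4.94 (SE 0.22, limma adjusted p = 1.68e-11). Its probe set is of the type that can bind other transcripts. Other members lower in adults were fbxa-157 (-3.15), fbxa-67 (-3.11), fbxa-90 (-2.92), fbxa-76 (-2.70) and fbxa-13 (-2.58). Of the fbxc genes, fbxc-54 was lower by -2.11, at percentiles 61.1, 60.7 and 61.1 in adult controls against 80.7, 81.9, 81.8 and 83.3 in L1 controls. It was followed by fbxc-7 (-1.92), fbxc-57 (-1.16) and fbxc-55 (-0.84). With the deposited values fbxc-55 turned to 0.30, and fbxc-57 no longer passed (adjusted p = 0.341). None of these genes passed with the Gapdh covariate.

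Over the 92 fbxa genes in runs, 23 were higher and 29 lower in adult controls, and single runs differed. Of all fbxa genes 31.6% were higher and 28.7% lower, and of all genes 34.5% and 40.3%. Whether any run differs from these shares was not tested. On chromosome V all 5 genes of the run from fbxa-191 to fbxa-108 were higher in adult controls, by 1.26 to 3.19, and so were all 5 of the run from fbxa-106 to fbxa-212, which holds fbxa-107, by 0.34 to 2.35. On chromosome I the 3 genes fbxa-124, fbxa-122 and fbxa-123 were higher by 1.61 to 1.83. A run on chromosome III, from fbxa-21 to fbxa-25, had 1 gene higher and 8 lower among 14 measured. Another on chromosome III, from fbxa-55 to fbxa-51, was mixed, with 2 higher and 3 lower among 12 and a range of -3.11 to 2.34. So was one on chromosome V, from fbxa-44 to fbxa-207, with 2 higher and 1 lower among 4 and a range of -2.08 to 4.16. In the fbxc run on chromosome II, 13 genes were higher and 2 lower among 22, over a range of -1.92 to 3.17. Of all 44 fbxc genes, 25 were higher and 9 lower (56.8% and 20.5%).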

How the data were processed

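The authors deposited log2 signals per probe set for 14 arrays; how they were background corrected, summarised and normalized is not given in the sources used here. After 77 control probe sets were dropped, 22548 remained for testing. Gene symbols came from the platform's annotation table, and names, pseudogene status, chromosome and gene order from a RefSeq gene table. Of 20766 single-gene probe sets, 20701 matched it. The fit used limma 3.58.1 (R 4.3.3; lmFit, eBayes) with 1 mean per group, all 14 arrays and 10 residual degrees of freedom, and p-values were two-sided and Benjamini-Hochberg adjusted over the tested probe sets, at a threshold of 0.05. Genotype contrasts used the deposited values and stage contrasts jointly quantile-normalized values. The number of arrays limits precision, with a median standard error of 0.11 (log2) for L1 contrasts and 0.12 for adult ones. The fit was tested on simulated data. The labels call the replicates biological. Same-numbered L1 arrays of the 2 genotypes deviated together (r = 0.42, 0.32, 0.19 and 0.24); adult ones did not in every pair (0.44, 0.11 and 0.04).

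Named genes were the members past the threshold in a genotype contrast, filled up by smallest p, the largest stage differences each way, fbxa-75 and fbxa-158; fbxc-51, fbxa-182 and the neighbours in runs were chosen after their values were seen. Lists held ubiquitin ligase genes, other F-box genes, fbxb, pathogen response, bath and math genes, and germline, sperm, intestine and ciliated neuron markers. Members, lists and tests were chosen with earlier results of these data known. No sequences are printed.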

Additional observations from a re-analysis of the deposited data

Results flagged for a closer look

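In groups of 4 arrays, 78 sets of values were screened for a single array far from the others, and 7 stood out; chance gives about 1 in 20. For fbxa-107 these were L1 mutant 3, at 4.03 where the others lay between 3.79 and 3.83, and L1 control 1, at 4.34 where the others lay between 4.23 and 4.24. L1 control 1 read 3.21 for fbxa-75, where the others lay between 4.30 and 4.37. L1 control 4 read 8.02 for fbxa-156 (others 7.72 to 7.77), and L1 control 2 read 8.03 for fbxa-24 (others 8.62 to 8.73). L1 mutant 4 read 3.45 for fbxa-206 (others all 3.26), and L1 mutant 2 read 3.18 for fbxa-197 (others 3.58 to 3.65).

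The genotype effect differed between adults and L1 in 2 members by limma's test of the difference. The adult minus L1 value was 0.6575 for fbxa-107 and -1.452 for fbxa-72.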

How the results depend on the processing

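Counts below are probe sets over the whole array, and percentages are of all the family's genes. Where a fit left out dim probe sets or all but single-transcript ones, genes without a tested probe set count as not passing. The lower shares in those fits therefore include genes that were not tested. At L1, 257 probe sets and 0.585% of fbxa genes passed. These became 525 and 1.17% with the replicate block, 98 and 0% in a fit of the L1 arrays alone, and 95 and 0% with the Gapdh covariate. In adults 231 probe sets passed, 427 with the replicate block and 128 with single-transcript probe sets only. The adult share of fbxa (1.17%) became 0.585% with joint quantile normalization, with the adult arrays alone, without dim probe sets, with single-transcript probe sets and with the Gapdh covariate. That of fbxc (4.55%) became 0% with the adult arrays alone and 2.27% without dim probe sets. In the latter fit fbxc-25 was not tested. For the difference between stages 206 probe sets passed, 420 with the replicate block and 97 with the Gapdh covariate, which left 0.585% of fbxa. The fbxc share (0%) became 2.27% with quantile normalization within stage, with the replicate block and with single-transcript probe sets. For adults against L1 in controls (16922 probe sets, 60.2% of fbxa, 77.3% of fbxc), fbxa became 92.4% with deposited values, 36.3% without dim probe sets and 2.92% with the Gapdh covariate. For fbxc these were 50.0% without dim probe sets and 4.55% with the covariate, under which 1852 probe sets passed. In mutants (16919, 59.6% and 61.4%), fbxa became 93.0% with deposited values, 36.3% without dim probe sets and 2.34% with the covariate, and fbxc 95.5% with deposited values and 2.27% with the covariate, under which 1385 probe sets passed. The stage difference of fbxc-55 was reversed with deposited values, to 0.2983 in controls and 0.4042 in mutants. The cause of these shifts was not tested, beyond the fewer arrays or probe sets in some fits.

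Leaving out each array in turn gave 153 to 331 probe sets at L1 (fbxa 0% to 1.75%, fbxc 0%), 103 to 765 in adults (fbxa 0.585% to 2.34%, fbxc 0% to 13.6%, the highest of each without adult control 1) and 91 to 562 for the difference between stages (fbxa 0.585% to 2.34%, fbxc 0% to 11.4%). It gave 16041 to 17178 for stage in controls (fbxa 55.6% to 63.2%, fbxc 72.7% to 79.5%) and 16036 to 17057 for stage in mutants (fbxa 53.8% to 60.8%, fbxc 54.5% to 65.9%). In adults it is not settled whether the replicate numbers pair the arrays. Deviations of same-numbered arrays had r = 0.44, 0.11 and 0.04. Mutant 2 with control 3 gave 0.33, and mutant 3 with control 2 gave 0.29. There the replicate block added fbxa-156 (limma adjusted p = 0.0391) and lost fbxa-191 (0.0631), and it added fbxc-28 for the difference between stages (0.0433). No replicate block was fitted for the stage contrasts, since no label ties an L1 array to an adult array of the same number.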
